A study of Saccharomyces cerevisiae with 22 samples.

Results

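Outside the galactose genes, 8 bins of 1 kb each carried the Gal4 insertion sites described here. They were selected on measured values, namely their many Ty5 insertion sites in the plasmid Gal4 library compared with the library without Sir4, so that contrast is given only as a description. In the coordinates of the deposited data the bins are chr13:773001-774000 (GTO3), chr8:177001-178000 (PIH1), chr8:188001-189000 (VMA10), chr8:189001-190000 (SRB2), chr8:190001-191000 (NCP1), chr11:614001-615000 (PTR2), chr4:1490001-1491000 (SNA2) and chr12:387001-388000 (YPS1). They are 8 of the 11866 bins that held a site in any library, and they held 7258 of 444512 sites. No source used here names the genome build of these coordinates, and gene names come from neighbours in the R64 annotation. A bin's name does not say that the gene was bound or regulated.

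The 22 libraries were calling-card libraries of Saccharomyces cerevisiae, and every strain lacked SIR4. The Sir4-free, plasmid and pooled libraries came from a MATa/MATα diploid homozygous for sir4::KanMX, trp1::Hyg, his3∆1, leu2∆0 and ura3∆0, and heterozygous for met15∆0 and lys2∆0. It carried no fusion in 1 library and a plasmid that overexpressed a Sir4 fusion of Gal4, Leu3 or Gcn4 in 1 library each. The pooled libraries were 8 fusions (Gal4, Kar4, Lee1, Rgm1, Rpi1, Sef1, Sfg1 and Yrm1), each marked by a barcode in its Ty5, in 2 biological replicate pools. The 2 Thi2 libraries came from a MATa haploid with THI2::sir4 at the native locus, which carried sir4::KanMX and trp1::Hyg together with met15∆0, ura3∆0, leu2∆0 and his3∆1, grown in complete medium or without thiamine. Cultures had 2% glucose or galactose, and which library had which sugar is not given.

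Gal4 is the activator of the yeast galactose regulon. It binds DNA as a dimer, and glucose keeps its target genes off, whereas galactose frees it from the inhibitor Gal80. In the calling-card method the factor is fused to a part of Sir4, the silencing protein that draws the integrase of the retrotransposon Ty5, so insertions gather near DNA that the factor reaches. Each distinct combination of chromosome, position and direction was counted once as a site, however many reads it had. A bin's share is its sites as a percentage of the library's sites. Brackets after single-library shares are 95% Clopper-Pearson intervals and cover counting error only.

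The libraries held 4755 to 79573 sites each, with 13383 for plasmid Gal4 and 16116 and 13886 for pooled Gal4. Only the pooled fusions were replicated, so tests between the other libraries compare libraries and not conditions. The plasmid and Thi2 libraries listed no position in both directions, whereas pooled Gal4 listed 1386 and 1058 such positions, and the Sir4-free library listed 584. A position can therefore count as 2 sites in pooled Gal4 and only as 1 in plasmid Gal4, and ratios between them are also given per position.

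The 8 bins together took 8.81% to 16.5% of the sites in the 3 Gal4 libraries. They held 8.81% (8.33 to 9.30) of the plasmid Gal4 sites, 15.5% (15.0 to 16.1) of those in pool 1 and 16.5% (15.9 to 17.2) in pool 2. The bins of GAL1/GAL10, GAL2 and GAL7, 3 bins set beside them for scale, held 4.30%, 9.84% and 9.87%. By reads instead of sites, the 8 bins took 18.7%, 21.4% and 22.4%. In the Sir4-free library they held 0.190% (0.161 to 0.223) of sites. Among the 14 pooled libraries of other fusions, their share was highest in Sef1 (0.753% and 0.906%) and Yrm1 (0.615% and 0.532%).

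**Figure D1:**
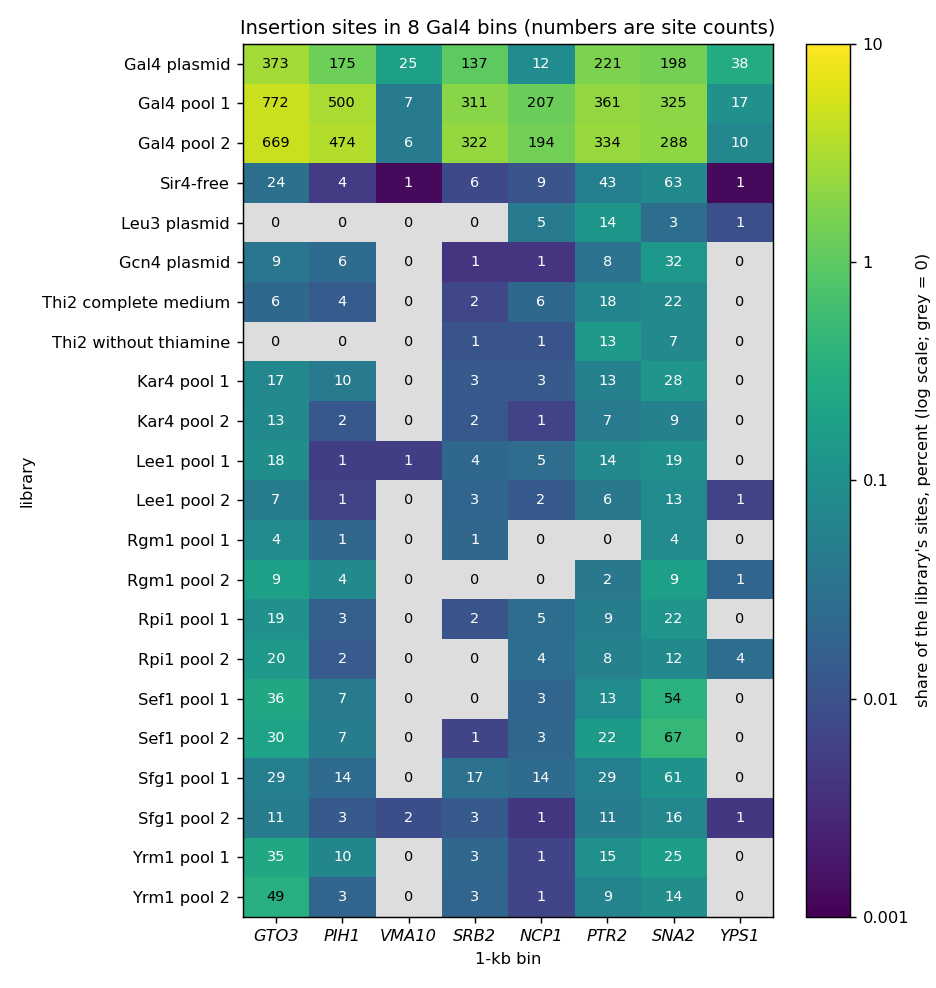
Sites in each of the 8 bins (columns) in each of the 22 libraries (rows); numbers are distinct sites and colour is the share of the library's sites in percent on a log scale, with grey for 0. The 3 Gal4 libraries fill the top rows, with 669 to 772 sites at GTO3 in the pools, while VMA10 and YPS1 are sparse outside plasmid Gal4 and NCP1 is full only in the pools.

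By rank, 5 of the 8 bins were among the fullest in plasmid and in pooled Gal4, whereas NCP1 was so only in the pools and YPS1 and VMA10 in neither. Ranked by sites among all bins, GTO3 was first in plasmid Gal4 and first in both pools. PTR2 stood 3rd, SNA2 4th, PIH1 8th and SRB2 14th in plasmid Gal4, and the same 4 bins stood between 3rd and 9th place in the pools. NCP1 ranked 147th in plasmid Gal4 but 15th and 12th in the pools. YPS1 ranked 66th in plasmid Gal4 and 131st and 166th in the pools, and VMA10 ranked 92nd, then 241st and 228th.

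GTO3 encodes a glutathione transferase of the omega class, an enzyme family that uses glutathione to reduce or detoxify its substrates. Its bin held 24 sites in the Sir4-free library, 373 in plasmid Gal4, 772 in Gal4 pool 1 and 669 in Gal4 pool 2. These were 0.0302%, 2.79% (2.51 to 3.08), 4.79% and 4.82% of the sites, and the bin was the fullest of each Gal4 library. Its sites also carried many reads, with a median of 48 per site in plasmid Gal4 against 11 over that library, and of 17 and 11 in the pools against 6 and 4. The densest 100 bp were bases 601 to 700 of the bin in both pools, with 140 and 118 sites, and in plasmid Gal4 that stretch held 50 sites, as did bases 901 to 1000. The cluster ran past the bin's right edge, where the next kb held 125 sites in plasmid Gal4 and 161 and 131 in the pools, while the kb to the left held 5, 0 and 5.

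PIH1 encodes a subunit of the R2TP complex, a partner of Hsp90 in the assembly of small nucleolar ribonucleoproteins, and its bin also lies in or near NEL1. The bin held 4 Sir4-free sites, 175 plasmid Gal4 sites and 500 and 474 pooled Gal4 sites. The pooled share was 3.26% ± 0.220 (SD, n = 2) against 1.31% (1.12 to 1.51) in plasmid Gal4. The densest 100 bp were bases 301 to 400 in all 3 Gal4 libraries, but bases 401 to 1000 held 13.1% (8.52 to 19.1) of the plasmid sites in the bin and 31.2% and 31.9% of the pooled ones. The pooled cluster was therefore wider on its right side.

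PTR2 encodes the plasma membrane transporter that imports di- and tripeptides. By the displaced annotation its bin also lies near SRP40, the gene of a nucleolar protein. The bin held 43 sites in the Sir4-free library, 221 in plasmid Gal4 and 361 and 334 in the pools. The pooled share was 2.32% ± 0.117 (SD, n = 2) and the plasmid share 1.65% (1.44 to 1.88). SNA2 encodes a small membrane protein, and its bin also lies in or near YDR524C-B, API2 and RBA50. That bin held 63 Sir4-free sites, 198 in plasmid Gal4 and 325 and 288 in the pools, a pooled share of 2.05% ± 0.0406 (SD, n = 2). Left of the PTR2 bin, 700 to 900 bp from its centre, lay a smaller group that was also present without a fusion, with 16 plasmid Gal4 sites, 23 and 28 pooled ones and 17 in the Sir4-free library. PTR2 and SNA2 had the fullest Sir4-free background of the 8 bins, at 133rd and 29th place among all bins of that library.

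VMA10, SRB2 and NCP1 are 3 adjoining bins, and their Gal4 sites formed 2 clusters instead of 3. Vma10 is a subunit of the vacuolar proton-pumping ATPase, Srb2 belongs to the head module of Mediator, the coactivator of RNA polymerase II, and Ncp1 is the reductase that passes electrons to the cytochrome P450 enzymes of ergosterol synthesis. The VMA10 bin held 25 plasmid Gal4 sites and 7 and 6 pooled ones, with 1 in the Sir4-free library. The SRB2 bin held 137, 311 and 322, with 6 in the Sir4-free library. The NCP1 bin held 12 plasmid Gal4 sites but 207 and 194 pooled ones, with 9 in the Sir4-free library.

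The VMA10 sites were the left shoulder of the SRB2 cluster. Their median lay at base 916 of the bin in plasmid Gal4, close to the shared edge. Windows drawn after the profile was seen gave a first cluster at chr8:188501-189900, a gap at chr8:189901-190400 and a second cluster at chr8:190401-191300. The first held 161 plasmid Gal4 sites (1.20%, 1.03 to 1.402) and 317 and 324 pooled ones (1.97% and 2.33%). The gap held 8, 6 and 7 sites. The second held 5 plasmid Gal4 sites (0.0374%, 0.0121 to 0.0872) and 229 and 217 pooled ones (1.42% and 1.56%). In the pools the medians of the clusters were 1275 and 1292.5 bp apart.

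**Figure D2:**
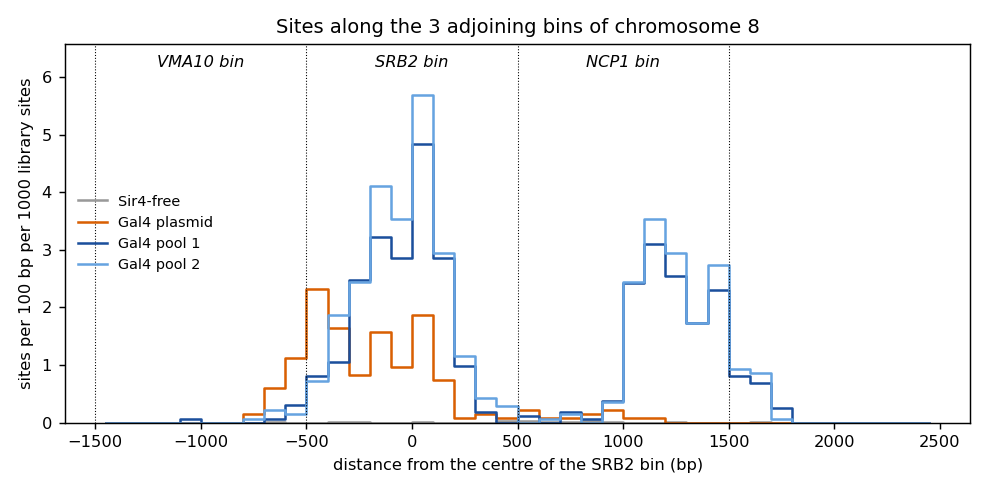
Sites per 100 bp per 1000 library sites (vertical axis) against distance from the centre of the SRB2 bin in bp (horizontal axis) for the Sir4-free, plasmid Gal4 and 2 pooled Gal4 libraries; dotted lines are bin edges. The left cluster appears in plasmid and pooled Gal4, and the right cluster, in the NCP1 bin and just past it, holds 229 and 217 pooled sites and 5 plasmid sites.

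The plasmid sites of the first cluster lay further left than the pooled ones. The first 300 bases of the SRB2 bin held 46.7% (38.1 to 55.4) of its plasmid sites and 22.5% (17.99 to 27.6) and 21.7% (17.4 to 26.6) of its pooled sites. The densest 100 bp of that bin were its first 100 bases in plasmid Gal4 and bases 501 to 600 in both pools.

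YPS1 encodes a yapsin, an aspartyl protease anchored at the cell surface. Its bin held 1 site in the Sir4-free library, 38 in plasmid Gal4 and 17 and 10 in the pools. The plasmid share was 0.284% (0.201 to 0.390) and the pooled share 0.0888% ± 0.0237 (SD, n = 2). Its plasmid sites had a median of 22.5 reads, above the library's 11, whereas its pooled sites had medians of 3 and 2 reads, below the library medians of 6 and 4. Bases 501 to 600 were the densest in plasmid Gal4, with 16 of the 38 sites.

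**Figure D3:**
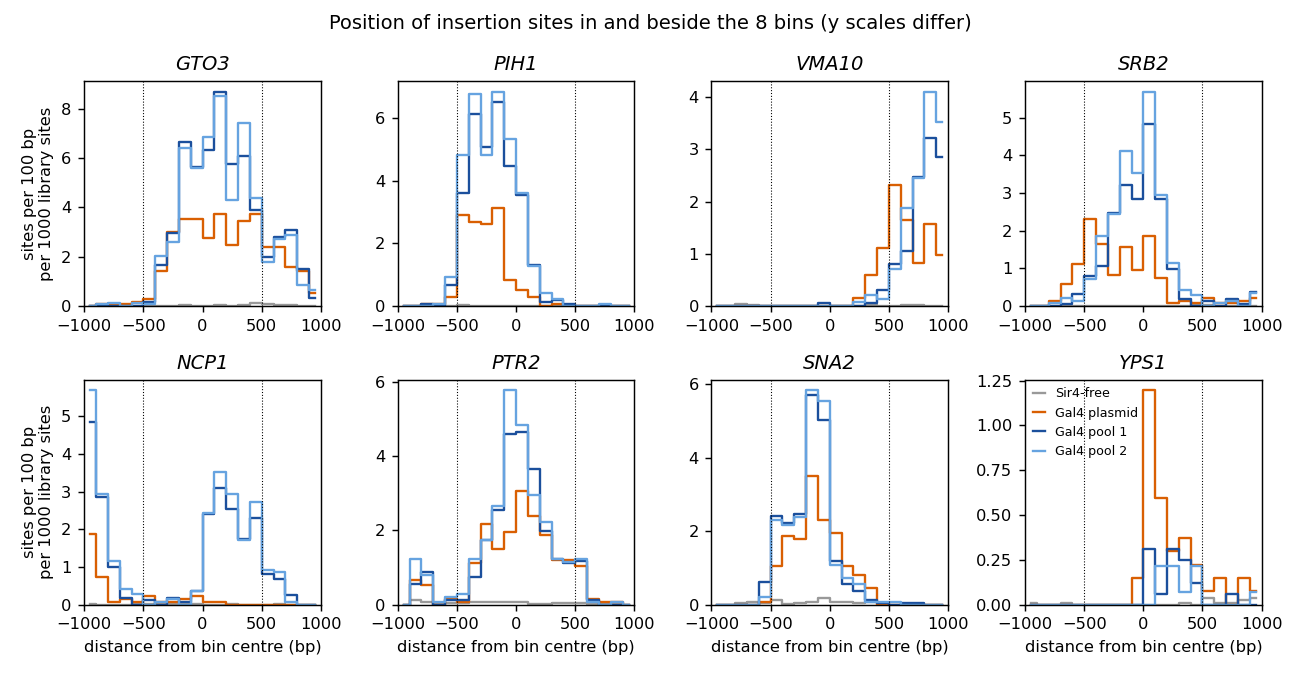
Sites per 100 bp per 1000 library sites (vertical axes, scales differ) against distance from the bin centre in bp for each of the 8 bins in 4 libraries; dotted lines mark the bin edges. GTO3, PIH1, PTR2 and SNA2 have their main cluster in the same place in all 3 Gal4 libraries, PTR2 has a smaller group of sites left of its bin, VMA10 shows the shoulder of the SRB2 cluster, and YPS1 is higher in plasmid Gal4.

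Set against the Sir4-free library, which is the contrast that chose them, all 8 bins belong to the 149 of 5577 bins (2.67%) that Fisher's exact test (two-sided) called higher in plasmid Gal4, so nothing is read from this count. The ratio of shares was 260 (99.8 to 965) at PIH1, 226 (38.2 to 9156) at YPS1, 149 (24.3 to 6103) at VMA10, 136 (60.8 to 376) at SRB2 and 92.4 (61.1 to 146) at GTO3. It was 30.6 (21.96 to 43.4) at PTR2, 18.7 (14.01 to 25.2) at SNA2 and 7.93 (3.07 to 21.3) at NCP1. The order by ratio differs from the order by sites because the Sir4-free counts run from 1 at VMA10 and YPS1 to 63 at SNA2.

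The stated choice of the bins rests on the plasmid and Sir4-free libraries, although the pooled values of GTO3 were known when the list was made. Earlier results of these data were known too, and NCP1 held only 12 plasmid Gal4 sites. The pooled values of GTO3 are therefore not independent of the choice, and those of NCP1 and the other bins may not be. In the pooled libraries, Gal4 was compared with the mean of the 7 other fusions by edgeR's quasi-likelihood test with Benjamini-Hochberg adjustment over 5460 bins. In that test 207 of the 5460 bins (3.79%) were higher with Gal4, and the 6 bins that held at least 10 sites without Gal4 were all among them. The log2 fold was 8.13 ± 0.21 (SE) at SRB2, 7.69 ± 0.18 at PIH1, 7.62 ± 0.23 at NCP1, 6.10 ± 0.17 at PTR2, 6.09 ± 0.15 at GTO3 and 4.70 ± 0.16 at SNA2. At NCP1 both Rgm1 libraries held 0 sites, and the Rgm1 log2 fold over the other 6 fusions was -4.64 ± 2.34 (SE). The mean of the 7 fusions, and so the NCP1 fold, depends on that uncertain value. Adjusted p-values in edgeR were at most 1e-300 at SRB2, PIH1 and GTO3, 5.71e-245 at NCP1, 2.28e-271 at PTR2 and 9.01e-186 at SNA2. These p-values and SEs rest on a spread shared over all bins of the fit. They do not measure the spread between the 2 pools at a single bin. The median over all bins tested was -1.71 on this log2 scale (-1.75 with DESeq2 size factors and -1.85 with library totals), and each fold stands beside that median.

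The GAL1/GAL10, GAL2 and GAL7 bins had log2 folds of 6.42, 6.21 and 5.98 in the same comparison. In a list of 11 known Gal4 targets (the galactose genes, their regulators GAL3 and GAL80, and GCY1, PGM2, MTH1, PCL10 and FUR4) all 11 genes had a higher bin (GAL1 and GAL10 share 1), with a median log2 fold of 3.84, while the 207 higher bins had a median of 3.47. This list was chosen with earlier results of these data known, and it is given only for scale. Each of the 6 bins lay above both medians. As they were chosen for being strong with Gal4, nothing is read from this.

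VMA10 and YPS1 passed the minimum of 10 sites over the 16 libraries only through Gal4, so their bins had to differ. VMA10 had 13 Gal4 sites and 3 sites in the 14 other libraries, a log2 fold of 5.99 ± 0.95 (SE; edgeR adjusted p = 1.14e-08). DESeq2's Wald test did not call it (log2 fold 5.08, adjusted p = 0.382), and with at least 5 reads per site, or without the Gal4 pool 1 library, it had too few sites to be tested. YPS1 had 27 Gal4 sites and 7 others, 4 of them in Rpi1 pool 2, with a log2 fold of 6.07 ± 0.65 (edgeR adjusted p = 1.01e-18). Its fold was 6.71 without that Rpi1 library and 4.59 with at least 5 reads per site. The PTR2 fold was 6.72 without the pool 2 library of Rgm1, which held 2 sites there.

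The plasmid and pooled Gal4 experiments shared most bins but differed at NCP1, VMA10 and YPS1. At NCP1 the share was 0.0897% (0.0463 to 0.157) in plasmid Gal4 and 1.34% over both pools, a pooled-to-plasmid ratio of 14.9 (8.44 to 29.1). Among the 47 bins with at least 100 pooled Gal4 sites this ratio had a median of 1.27, and NCP1 stood second, below a bin with 1 plasmid and 171 pooled sites (ratio 76.3, 13.5 to 3030). That filter uses the pooled counts, which favours high ratios, and VMA10 and YPS1 could not pass it. Nothing is therefore read from the rank. Counted per position, the NCP1 ratio was 15.0 (8.49 to 29.3). The plasmid was 1 library and its sugar is not given, so plasmid expression, medium and library cannot be told apart.

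VMA10 and YPS1 went the other way. Their plasmid-to-pooled ratios were 4.31 (2.12 to 9.18) and 3.16 (1.88 to 5.37), and per position 3.96 (1.95 to 8.43) and 2.90 (1.72 to 4.94). The bins were chosen on their plasmid counts, and these intervals do not cover the effect of that choice. The VMA10 sites are also only the shoulder of the first cluster. As a whole that cluster was fuller in the pools, with 1.20% of plasmid sites against 1.97% and 2.33% of pooled ones. The other 5 bins were all fuller in the pools, with pooled-to-plasmid ratios of 2.48 (2.11 to 2.93) at PIH1, 2.06 (1.71 to 2.50) at SRB2, 1.72 (1.54 to 1.94) at GTO3, 1.403 (1.20 to 1.64) at PTR2 and 1.38 (1.17 to 1.63) at SNA2. Per position these ratios were 2.17, 1.95, 1.44, 1.31 and 1.31. Of the 8 bins, GTO3 had the most doubly listed positions, 188 in pool 1 and 144 in pool 2.

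**Figure D4:**
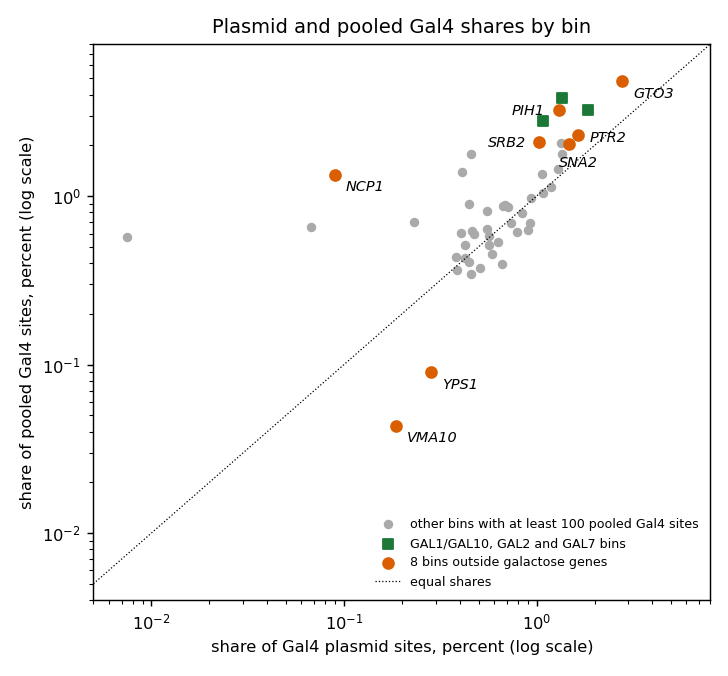
Share of a bin in plasmid Gal4 (horizontal axis, percent, log scale) against its share in both Gal4 pools together (vertical axis, percent, log scale); orange points are the 8 bins, green squares the galactose bins, grey points other bins with at least 100 pooled Gal4 sites, and the dotted line marks equal shares. NCP1 lies far above the line, with a ratio of 14.9, and YPS1 and VMA10 lie below it.

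Many Gal4 sites recurred at the same base and in the same direction. At GTO3, 519 sites were listed in both pools, which is 67.2% of pool 1 and 77.6% of pool 2, and 249 of the 373 plasmid sites (66.8%) were listed in a pool. At PIH1, 343 sites were shared by the pools (68.6% and 72.4%), and 120 of the 175 plasmid sites (68.6%) were in a pool. The share of plasmid sites found in a pool was 45.2% at PTR2, 44.9% at SNA2 and 41.6% at SRB2. At NCP1 only 3 of 12 plasmid sites were in a pool and at YPS1 only 2 of 38. GTO3 and PIH1, the bins with most pooled sites, had the highest of these shares, and no measure of sharing beyond density was computed.

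The direction of insertion was near even at GTO3 and less so in some other bins. At GTO3 51.2% (46.0 to 56.4), 49.6% and 50.5% of sites were in the plus direction in plasmid Gal4 and the pools. At SRB2 the plus share was 46.7% (38.1 to 55.4) in plasmid Gal4, 53.7% (48.0 to 59.3) in pool 1 and 60.9% (55.3 to 66.2) in pool 2. At SNA2 it was 42.8% (37.3 to 48.3) and 42.0% (36.2 to 47.9) in the pools and 48.0% (40.8 to 55.2) in plasmid Gal4. PTR2 had 43.4% (38.0 to 48.9) in pool 2. YPS1 had 76.5% (50.1 to 93.2) and 90.0% (55.5 to 99.7) in the pools, on 17 and 10 sites, and 55.3% (38.3 to 71.4) in plasmid Gal4. These shares were not tested against each other.

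Libraries without a Gal4 fusion held small shares of their sites in the bins, and the Sir4-free library held at least 1 site in each. Some bins still ranked high in some of these libraries. For example, SNA2 stood 12th in Sfg1 pool 1 but 477th in plasmid Leu3. PTR2 stood 16th in starved Thi2 but 472nd in plasmid Gcn4, and GTO3 stood 24th in Lee1 pool 1 but 918th in complete-medium Thi2. In the 19 libraries without a Gal4 fusion, the highest share measured in each of the 8 bins was below the lowest Gal4 share of that bin, which in part restates how the bins were chosen. How many of all 11866 bins show this separation was not counted, so nothing is read from it. For VMA10 the separation is not shown at the depth of every library, since 0 sites in the Rgm1 libraries allow shares of up to 0.0631% and 0.0607%, above its lowest Gal4 share of 0.0432%. The same holds for YPS1 and NCP1. The YPS1 interval in Rgm1 pool 2 reached 0.113% on 1 site, above its lowest Gal4 share of 0.0720%. That of NCP1 in plasmid Leu3 reached 0.109% on 5 sites, above its lowest Gal4 share of 0.0897%. SNA2 was the fullest elsewhere, with a site in all 19 libraries and a median share of 0.0943%, and its highest value was 0.467% in Sef1 pool 2, beside 0.0792% in the Sir4-free library. GTO3 had sites in 17 of 19 libraries with a median of 0.0833%. VMA10 had sites in 3 of them and YPS1 in 6.

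The 7 other pooled fusions were compared among themselves with an edgeR F test over 5380 bins, of which 676 (12.6%) were called. The GTO3, SNA2, PTR2 and PIH1 bins were called and the SRB2 and NCP1 bins were not, while VMA10 and YPS1 had too few sites (3 and 7) to be tested. At SNA2 Sef1 had 54 and 67 sites (0.360% and 0.467%). Its log2 fold over the other 6 fusions was 2.19 ± 0.23 (SE), and the edgeR adjusted p of the F test was 1.11e-18. Sef1 is a transcription factor of the zinc cluster family, as is Gal4.

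At GTO3 Yrm1, a zinc cluster activator of multidrug resistance genes, had 35 and 49 sites (0.242% and 0.330%). Its log2 fold was 1.81 ± 0.25 (SE), that of Sef1, with 36 and 30 sites, was 1.36 ± 0.26, and the edgeR adjusted p of the F test was 2.63e-19. The Yrm1 sites had medians at bases 864 and 891 of the bin and the Sef1 sites at bases 801.5 and 826, against 604.5 and 604 for pooled Gal4. This was not particular to them, since the medians of Lee1 lay at bases 838 and 803, those of Sfg1 at 794 and 690 and those of Rpi1 at 699 and 729, while those of Kar4 lay at 804 and 599 and those of Rgm1, on 4 and 9 sites, at 111 and 238. At SNA2, by contrast, the Sef1 medians, bases 393.5 and 394, lay near those of pooled Gal4, bases 347 and 351. That was not particular to Sef1, since the Yrm1 medians there, bases 328 and 376.5, lay nearer still. Those of the remaining fusions lay further right, from base 403.5 in Sfg1 pool 2 to base 552 in Lee1 pool 1. The Yrm1 excess was not confined to GTO3. Its log2 fold was 1.99 ± 0.29 (SE) at GAL1/GAL10 and 1.85 ± 0.31 at GAL7, but 0.03 ± 0.40 at GAL2. The same F test called GAL1/GAL10 (edgeR adjusted p = 9.61e-10) and GAL7 (1.32e-07) but not GAL2 (0.906).

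At PTR2 Sef1 had 13 and 22 sites, with a log2 fold of 1.54 ± 0.36 (SE; edgeR adjusted p of the F test 0.00172). That call was lost without Sef1 replicate 2 (adjusted p = 0.0911), with at least 5 reads per site (0.735), with library totals (0.0723) and when a site shared by fusions was kept only where it had most reads (0.175). At PIH1 the edgeR adjusted p was 0.0372, and the call was lost under 11 of 23 alternatives. Among these were leaving out Lee1 replicate 1 (0.122) or 2 (0.0848), Sef1 replicate 1 (0.0782) or 2 (0.0640), Yrm1 replicate 1 (0.142) and Sfg1 replicate 2 (0.0504). The adjusted p at SRB2 was 0.567 and at NCP1 0.574 in edgeR, with 42 and 43 sites over the 14 libraries.

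Many of the other fusions' sites in these bins stood at the very base and direction of a Gal4 site of the same pool. At GTO3 this held for 143 of 158 sites in pool 1 (90.5%, 84.8 to 94.6) and for 109 of 139 in pool 2 (78.4%, 70.6 to 84.9). Gal4 sites took 38.6% and 33.5% of the 2000 possible sites of that bin, counting each base in both directions. Those percentages take no account of clustering within the bin, and no baseline matched for density was computed. Of the Gal4 sites there, 67.2% in pool 1 and 77.6% in pool 2 were also listed in the other pool. The GTO3 sites of the other fusions had a median of 2 and 3 reads, against 17 and 11 for the Gal4 sites. Over whole libraries, 2.24% to 11.4% of another fusion's sites were Gal4 sites of the same pool, and the highest values were those of Sef1 (11.4% and 10.4%) and Yrm1 (8.85% and 6.34%).

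Of the 6 bins with at least 10 sites of other fusions in each pool, the others gave lower values than GTO3. The coincidence was 89.1% and 63.6% at PIH1, 76.3% and 61.5% at PTR2, 62.9% and 68.6% at SNA2, 53.3% and 33.3% at SRB2, and 25.8% and 16.7% at NCP1. In the galactose bins it was 98.1% and 93.2% at GAL1/GAL10 and 96.3% and 95.9% at GAL7, above GTO3, and 86.7% and 66.1% at GAL2. Against the Gal4 sites of the other pool, the coincidence was 79.1% and 81.3% at GTO3, and 2.13% to 10.9% over whole libraries. Whether sites of other fusions in these bins were made by those fusions or by a barcode read in the wrong sample was not tested. With each shared site kept only in the fusion with most reads, an alternative chosen after seeing the data, the edgeR F test still called GTO3 (adjusted p = 1.56e-06) and SNA2 (0.000315) but not PIH1 (0.867). In that setting the log2 fold of Gal4 over the other 7 was 8.18 at GTO3 and 9.92 at PIH1.

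**Figure D5:**
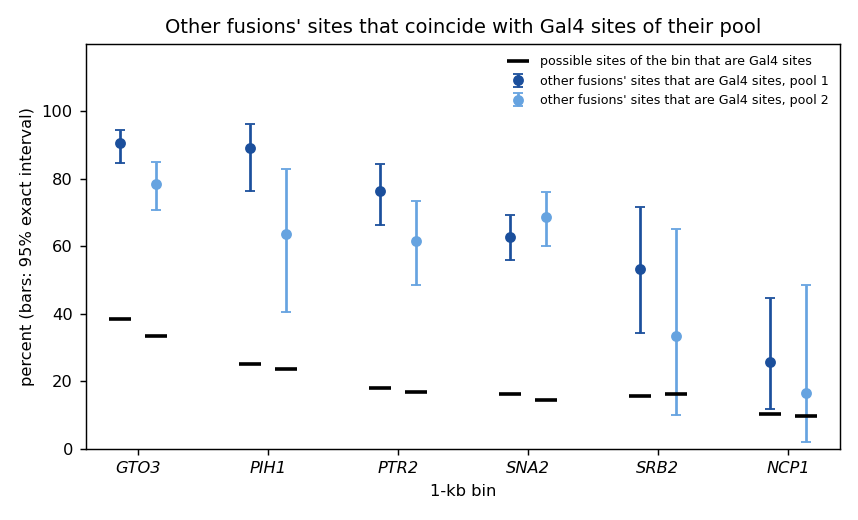
Percent of the other 7 fusions' sites in a bin that are at a base and direction where Gal4 of the same pool has a site (vertical axis; points with 95% exact intervals) for 6 bins (horizontal axis), pool 1 dark and pool 2 light; black dashes are the percent of the bin's 2000 possible sites that are Gal4 sites. At GTO3 the points are at 90.5% and 78.4%, and the dashes at 38.6% and 33.5%. The dashes take no account of clustering within a bin.

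Between the plasmid libraries of Leu3, the activator of leucine synthesis genes, and Gcn4, the activator of amino acid synthesis genes, 193 of 1629 bins (11.8%) differed in a two-sided Fisher exact test. Of the 5 bins tested here, PTR2 and SNA2 were among them. PTR2 had 14 Leu3 and 8 Gcn4 sites, a share ratio of 3.91 (1.53 to 10.8; Fisher's exact test, adjusted p = 0.0176). SNA2 had 3 Leu3 and 32 Gcn4 sites, a ratio of 0.210 (0.0411 to 0.670; Fisher's exact test, adjusted p = 0.0263). Both calls were lost when bins with a single site were tested too (adjusted p of 0.0837 and 0.125).

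GTO3 had 0 Leu3 sites, which allows a share of up to 0.0281%, and 9 Gcn4 sites (Fisher's exact test, adjusted p = 0.307). NCP1 had 5 and 1 sites (exact adjusted p = 0.0944), and PIH1 had 0 and 6 (exact adjusted p = 0.528). VMA10, SRB2 and YPS1 had at most 1 site in these libraries together and were not tested.

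Between the Thi2 libraries, starved against complete medium, 10 of 2474 bins (0.404%) differed by Fisher's exact test, and none of the 4 bins tested here was among them. PTR2 had 13 and 18 sites, shares of 0.142% and 0.0646% and a ratio of 2.20 (0.989 to 4.74), with an unadjusted exact p of 0.0357 that was 0.801 after adjustment. Unadjusted, 138 bins were below 0.05. SNA2 had 7 and 22 sites, a ratio of 0.967 (0.349 to 2.34), and NCP1 had 1 and 6. GTO3 had 0 in the starved library, which allows a share of up to 0.0327%, and 6 in complete medium.

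Of 234 other bins with at least 20 sites in the 3 Gal4 libraries together, 5 are named because their log2 shares over the 22 libraries followed the summed share of the 8 bins most closely. They were the bins at WHI5/LPX1 (Pearson's r 0.919), PDR15 (0.917), SYG1/YIL046W-A (0.913), STP4 (0.912) and RUP1/SFL1 (0.908). The WHI5/LPX1 bin had 179 sites in plasmid Gal4, 336 and 282 in the pools and 13 in the Sir4-free library. These correlations are descriptions over 22 libraries, 3 of which, the Gal4 libraries, stand far above the rest.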

How the data were processed

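Ty5 insertions were mapped in 22 libraries. DNA was cut with Hinp1I, HpaII or TaqI, self-ligated, amplified by inverse PCR and sequenced on an Illumina GAII, per the labels' protocols. The deposited files give, per the series text, a chromosome, position, direction and the count of reads at each insertion site, which the authors did not normalize as far as the values show. No source used here names the aligner, genome build or read filters. Raw data were single-end or paired-end, per the series text, which does not say which library was which.

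Repeated lines were summed: the Sir4-free file has 84113 lines for 79573 sites. Distinct sites were counted in 1000-bp bins. The pooled libraries were fitted in edgeR 4.0.16 (limma 3.58.1, R 4.3.3) by glmQLFit and glmQLFTest, with TMM factors of 0.626 to 1.70 and at least 10 sites over the libraries of the fit. For Gal4 against the other fusions, 8 residual degrees of freedom gave a biological coefficient of variation of 0.0928. P-values under 1e-300 were written as 1e-300. Single libraries were compared by two-sided Fisher's exact tests on bins where both libraries summed to 5 or more sites. P-values were adjusted by Benjamini-Hochberg over all bins tested (threshold 0.05), intervals of share ratios are exact given the summed count, and a count of 0 was taken to allow 3 counts. Log2 shares for the likeness of bins add 0.5 site. Alternatives used DESeq2 1.42.0. Other steps used Python 3.11.15, pandas 2.3.3, numpy 2.4.6, scipy 1.17.1 and matplotlib 3.10.9. The fits and exact tests were tested on simulated data.

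The members and lists were chosen with earlier results of these data known. The text names the 8 bins, 3 galactose bins, a list of 11 known Gal4 targets and the 5 most alike bins. Bins took the names of R64 genes that begin inside them or no more than 500 bp away, with a longer distance allowed on chromosome 11. No R64 coordinate is printed because the annotation is displaced from the data, most of all on chromosome 11, where PTR2 lies. Replicate numbers are pool numbers, so they mark a shared pool per the series text. Over 252 bins with at least 160 sites, differences between replicates of 28 fusion pairs correlated with a median of 0.0757 (-0.0496 to 0.176; 11 pairs above 0.1).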

Additional observations from a re-analysis of the deposited data

How the results depend on the processing

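Gal4 against the other 7 pooled fusions gave 207 higher bins, and 135 with at least 5 reads per site, while the 7 other fusions differed in 676 bins, and in 421 with at least 5 reads per site. Fewer sites were counted in that setting. Leaving out single libraries gave 162 to 220 and 596 to 663 bins. With the replicate block for the shared pool the counts were 206 and 668, and the block changed no call of the 8 bins. For the 6 bins with at least 10 sites outside Gal4, all 150 values under the alternatives to Gal4 against the other 7 kept direction and call, while VMA10 lost its call in DESeq2's Wald test. Library totals in place of TMM lowered each of the 8 log2 folds, to 5.34 at GTO3 for example, without ending a call. No value reversed. The single-library comparisons had no replicates, and bins with few sites (VMA10, YPS1) were at the limit of the depth.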
